A study of Rattus norvegicus with 12 samples.

Results

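The genes described here are 10 genes of platelets and of megakaryocytes, the marrow cells that shed platelets: Pf4, Ppbp, Itga2b, Gp1bb, Gp5, Gp9, Tubb1, Treml1, Clec1b and Vwf. A gene was measured where the array annotation tied a probe set, the group of short probes that reports 1 transcript, to that gene alone. This held for 9 of the 10, out of 14217 genes measured in this way, and each of the 9 had 1 such probe set. Gp1bb, a chain of the receptor for von Willebrand factor, had only a probe set shared with Septin5 and therefore has no value. RNA came from fracture hematoma, the clot in the gap of a femur cut in surgery, collected on day 3 from female Sprague-Dawley rats with a gap of 1.5 mm held by an external fixator. Old rats were 52 weeks of age and young rats 12 weeks. The fixator stood 15 mm off the bone in the semi-rigid form and 7.5 mm in the rigid form, so the groups were old semi-rigid (OSR), old rigid (OR), young semi-rigid (YSR) and young rigid (YR). Each group had 3 arrays, and each array held RNA pooled from 3 animals, so the spread between single animals was not measured.

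Platelets are the first cells to act in a clot. They bind exposed collagen through von Willebrand factor and the GPIb-IX-V receptor, bridge to each other with fibrinogen through the integrin αIIbβ3, and empty granules full of chemokines and growth factors. They have no nucleus and carry RNA inherited from the megakaryocyte, so a probe set of this kind reads platelet and megakaryocyte RNA together. RNA of any other cell in the clot that expresses the gene is read with it. In bulk tissue, fewer cells of a type and less RNA per cell cannot be told apart.

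Trimmed means were about 500.2 on every array, and array medians lay between 126.9 and 167.5. Values below are log2 of the signal, and a difference of 1 is a doubling. The log2 ratio of 3′ to 5′ signal of Gapdh, which rises when RNA is broken, was 2.95 on OR replicate 1 and 6.69 on YSR replicate 1, against 0.33 to 1.59 on the other 10 arrays. None of the 9 platelet genes, and no measured erythroid, neutrophil or macrophage marker, was at the floor of the signal on any array. Gp5 was the 1 platelet gene with a mean (6.95) under the median of all probe set means (7.16), so the alternative without dim probe sets has no value for it.

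The 2 chemokines of platelet alpha granules were both measured. Pf4, platelet factor 4, was at 14.86, 14.38 and 14.56 in OSR, 14.54, 14.85 and 14.60 in OR, 14.31, 13.70 and 14.59 in YSR, and 14.05, 15.02 and 14.00 in YR (replicates 1 to 3). The groups overlapped, and the highest array of all was in YR. Ppbp, whose protein is cut to the neutrophil attractant CXCL7, was at 10.26, 7.65 and 9.62 in OSR, 8.91, 9.55 and 10.02 in OR, 7.21, 7.20 and 8.23 in YSR, and 7.31, 9.62 and 6.98 in YR. Most old arrays were above most young ones for Ppbp, but OSR replicate 2 lay among the young arrays and YR replicate 2 among the old.

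Of the adhesion receptors, Itga2b encodes the αIIb chain of the fibrinogen receptor. Itga2b was at 11.38, 9.64 and 10.49 in OSR, 10.13, 11.21 and 10.75 in OR, 9.83, 7.59 and 10.56 in YSR, and 8.52, 11.07 and 9.21 in YR. YSR replicate 2 was the lowest array by a wide margin, and all 4 groups overlapped. Gp5 and Gp9 encode the GPV and GPIX chains of the von Willebrand factor receptor. Gp5 was at 8.81, 6.84 and 7.99 in OSR, 5.68, 8.10 and 8.54 in OR, 4.95, 5.74 and 7.05 in YSR, and 5.49, 8.37 and 5.82 in YR. Gp9 was at 9.26, 5.83 and 8.25 in OSR, 7.04, 8.79 and 8.23 in OR, 7.55, 4.47 and 8.29 in YSR, and 6.45, 8.79 and 5.80 in YR. Gp9 had the widest range of the 9 genes, 27.7-fold between its lowest and highest array, and Gp5 on OR replicate 1, an array of high 3′ to 5′ ratio, was well below the other OR arrays.

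Clec1b and Treml1 encode receptors of the platelet surface. Clec1b, also called CLEC-2, binds podoplanin, and was at 12.01, 11.04 and 11.51 in OSR, 11.95, 12.43 and 10.96 in OR, 11.06, 9.83 and 11.47 in YSR, and 9.87, 12.22 and 10.12 in YR. Treml1, which encodes the granule receptor TLT-1 that reaches the surface on activation, was at 10.96, 9.73 and 9.95 in OSR, 9.97, 10.80 and 9.99 in OR, 9.60, 8.67 and 10.21 in YSR, and 9.10, 10.77 and 8.88 in YR. For both genes YR replicate 2 stood with the highest old arrays while the other YR arrays were among the lowest.

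Tubb1 encodes the beta-tubulin of the ring of microtubules that keeps platelets flat. It was at 12.48, 10.95 and 11.55 in OSR, 11.95, 12.39 and 11.69 in OR, 11.22, 10.11 and 11.90 in YSR, and 10.63, 12.28 and 10.60 in YR. Vwf encodes von Willebrand factor, which endothelial cells make as well as megakaryocytes. Vwf was at 10.30, 9.15 and 8.99 in OSR, 9.51, 10.43 and 9.57 in OR, 8.98, 8.15 and 8.65 in YSR, and 7.82, 9.43 and 8.10 in YR. Under each fixator the old arrays of Vwf lay above all young arrays, by a very small gap in the semi-rigid pair and also narrowly in the rigid pair, whereas the Tubb1 groups overlapped.

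**Figure D1:**
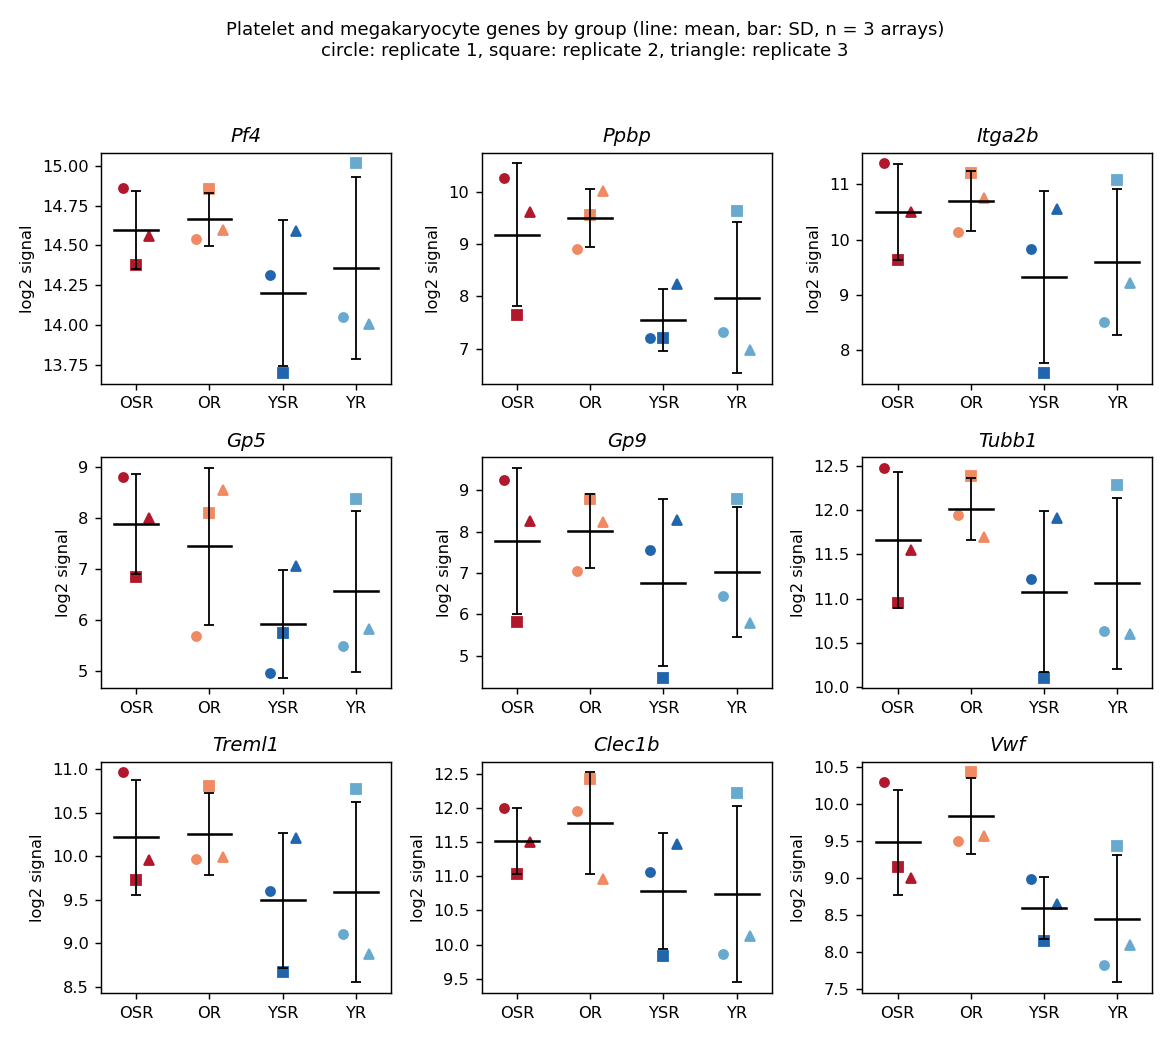
Log2 signal (vertical axes, 1 panel per gene with its own scale) of the 9 measured platelet and megakaryocyte genes in OSR, OR, YSR and YR, with points for arrays, lines for means and bars for the SD (n = 3 arrays). In every panel the square of YR, replicate 2, is the highest of the 6 young arrays, and in 6 of the 9 panels the square of YSR, replicate 2, is the lowest of all 12 arrays.

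The comparison of age asked whether the clot of old rats held more or less RNA of these genes than that of young rats. All 9 genes had higher means in old than in young rats, but none passed an adjusted p under 0.05, and for none did all old arrays lie above all young arrays. Differences (old minus young, averaged over fixation) were from 0.35 for Pf4 to 1.58 for Ppbp, with a median of 1.01, against 0.02 over all probe sets, of which 53.1% were higher in old rats. All 9 stayed higher with any 1 array left out, and the median was lowest, at 0.65, without YSR replicate 2. With limma across all 31042 probe sets (Benjamini-Hochberg adjustment), 0.00644% of probe sets were called at an adjusted p under 0.05, and 4.7% were higher at an unadjusted p under 0.05. At that unadjusted level 3 of the 9 genes were higher. Ppbp was higher by 1.58 (SE 0.50, adjusted p = 0.37), Vwf by 1.14 (SE 0.31, adjusted p = 0.29) and Gp5 by 1.42 (SE 0.64, adjusted p = 0.56). These are 2.98-fold for Ppbp, 2.20-fold for Vwf and 2.68-fold for Gp5. The count of 3 was 6 without OSR replicate 2, and 8 without YSR replicate 3 or without YR replicate 2, while the adjusted count was 0 in each case. In that order, 2614, 3105 and 2850 of all probe sets passed unadjusted in either direction, against 2667 with all arrays. The count fell to 2 without OSR replicate 1, OSR replicate 3, OR replicate 2, YSR replicate 2, YR replicate 1 or YR replicate 3. In those settings 1848 to 3012 of all probe sets passed in either direction. Without OR replicate 1 the count was 4, with 2969 of all probe sets. YR replicate 2 was the highest of the 6 young arrays for 9 of 9 genes, so leaving it out could only raise the differences. Probe sets whose 6 old arrays all lay above the 6 young arrays were 0.229% of all.

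Within the semi-rigid groups the genes were again higher in old rats, 9 of 9, with a median difference (OSR minus YSR) of 0.89 against 0.00 over all probe sets. Ppbp averaged 9.18 ± 1.36 in OSR and 7.55 ± 0.59 in YSR (SD, n = 3), a difference of 1.63 (SE 0.71, limma adjusted p = 0.96). Gp5 averaged 7.88 ± 0.99 in OSR and 5.91 ± 1.06 in YSR (SD, n = 3), a difference of 1.97 (SE 0.90, limma adjusted p = 0.96). The other 7 differences were between 0.40 for Pf4 and 1.18 for Itga2b. Unadjusted, 2 of the 9 genes were higher at p under 0.05, against 2.03% of probe sets, and the adjusted share over all probe sets was 0.00322%. This count was 0 without OSR replicate 1, OR replicate 2 or YSR replicate 2, 1 without OSR replicate 3, YSR replicate 1 or YR replicate 3, and 3 without YSR replicate 3 or YR replicate 2. In these settings 968 to 2236 of the 31042 probe sets passed in either direction, against 1352 with all arrays. Vwf was the 1 gene of the 9 whose 3 OSR arrays lay above all 3 YSR arrays, a pattern that 4.08% of all probe sets had. Without YSR replicate 2, 8 of the 9 genes were higher in OSR and the median difference was 0.31, and without OSR replicate 1 it was 0.48.

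Within the rigid groups the median difference (OR minus YR) was 1.00 against 0.04 over all probe sets, and 9 of 9 genes were higher in OR. Vwf averaged 9.83 ± 0.51 in OR and 8.45 ± 0.86 in YR (SD, n = 3), a difference of 1.39 (SE 0.44, limma adjusted p = 0.40). The other 8 differences were between 0.31 for Pf4 and 1.52 for Ppbp, none with an unadjusted p under 0.05. The unadjusted share over all probe sets was 4.8% higher, and the adjusted share was 0.00322%. Vwf was also the 1 gene of the 9 with every OR array above every YR array, as were 7.75% of all probe sets. Endothelial markers were higher in this pair as well. All 8 of the 8 measured (of 10 listed) had higher means in OR than in YR, 5 of them at an unadjusted p under 0.05, none was at the floor on any array, and their mean log2 signal was 9.79 to 10.71 in OR and 9.41 to 9.61 in YR. Their median difference was 0.76 in this pair. In the semi-rigid pair, 5 were higher and 3 lower in OSR, 0 at an unadjusted p under 0.05, with a median of 0.23. The part of endothelial cells in the difference in Vwf was not tested.

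YR replicate 2 stood apart from the other YR arrays. It was the highest of the 6 young arrays for 9 of the 9 genes, and it exceeded the mean of the other YR arrays by between 0.99 for Pf4 and 2.72 for Gp5. Without it, the count of genes higher in OR at an unadjusted p under 0.05 was 7 of 9, against 1 of 9 with it, and the median difference was 1.79. Leaving out other arrays moved that median the other way, to 0.55 without YR replicate 3, 0.57 without YR replicate 1 and 0.65 without OR replicate 2. Differences without it were 2.35 for Ppbp (SE 0.63, limma adjusted p = 0.33), 1.79 for Clec1b (SE 0.49, limma adjusted p = 0.33) and 1.88 for Vwf (SE 0.40, limma adjusted p = 0.22). No gene passed the adjusted threshold in that setting. YR replicate 2 was the highest YR array for each gene, so leaving it out could only raise these differences. Of all 31042 probe sets, 2660 passed unadjusted in either direction without it, against 2589 with it. The count of genes higher in OR was 2 without OSR replicate 1, OSR replicate 2, OR replicate 1 or OR replicate 3. In those settings 2542 to 2835 of all probe sets passed in either direction.

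**Figure D2:**
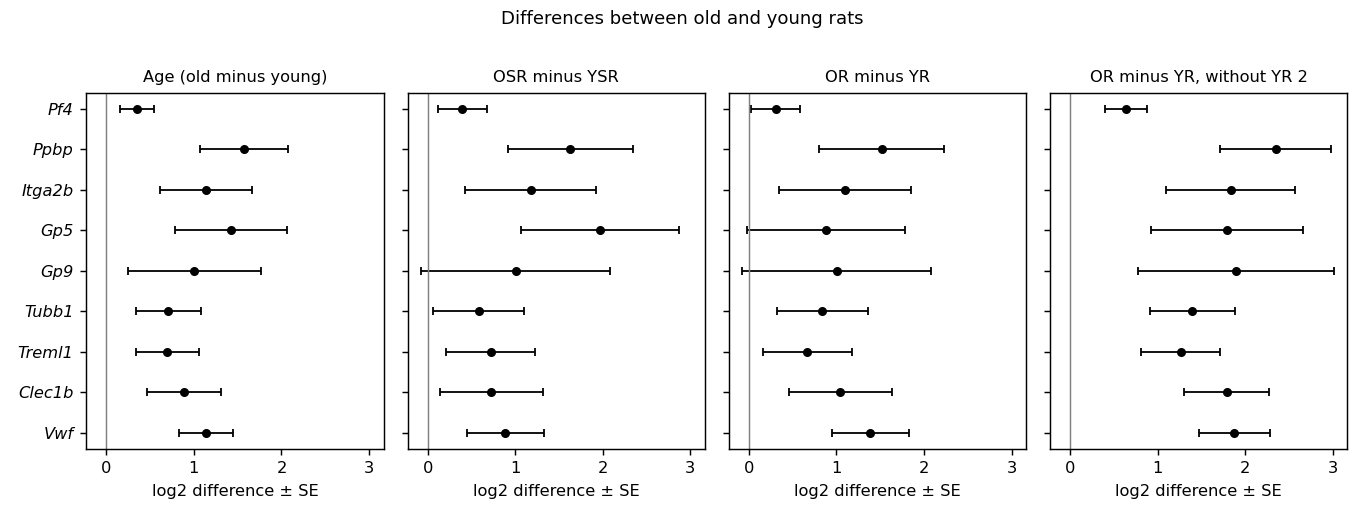
Log2 differences between old and young rats (horizontal axes, points, with bars for the SE) of the 9 genes, for age averaged over fixation, for OSR minus YSR, for OR minus YR, and for OR minus YR without YR replicate 2. Every point lies above 0, from 0.31 for Pf4 in OR minus YR to 2.35 for Ppbp in the panel without YR replicate 2. That array was the highest YR array for each gene, so its removal could only raise these differences.

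The comparison of fixation asked whether the stiffness of the fixator went with the RNA of these genes. All 9 had lower means under semi-rigid than under rigid fixation, by differences (semi-rigid minus rigid) of -0.37 to -0.07, the smallest p being that of Ppbp at -0.37 (SE 0.50, limma adjusted p = 0.93). No gene passed an unadjusted p under 0.05, which 5.73% of all probe sets did in either direction, with an adjusted share of 0%. The direction rested on single arrays, since 9 of 9 genes were higher under semi-rigid fixation without YR replicate 2 (0.04 for Ppbp to 0.35 for Gp5), 7 of 9 without YSR replicate 2, 5 of 9 without OSR replicate 2 and 4 of 9 without OR replicate 2. In old rats (OSR minus OR) 8 of 9 were lower, and the smallest p was that of Vwf at -0.35 (SE 0.44, limma adjusted p = 0.94), where 5.26% of probe sets passed unadjusted and 0% adjusted. Without OSR replicate 2, 7 of 9 were higher in OSR, with a median of 0.20, and without OR replicate 2, 6 of 9, with a median of 0.06. In young rats (YSR minus YR) 7 of 9 were lower, and the smallest p was that of Gp5 at -0.64 (SE 0.90, limma adjusted p = 0.99), where 4.37% passed unadjusted and 0% adjusted. Without YR replicate 2, all 9 differences in young rats were above 0 instead, from 0.17 for Pf4 to 0.80 for Clec1b, and without YSR replicate 2 it was 7 of 9, with a median of 0.37.

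The interaction, the question the study posed, compares the fixation difference in old rats with that in young rats. For the 9 genes it was between -0.50 for Vwf and 1.08 for Gp5, and Gp5 had the smallest p (SE 1.27, limma adjusted p = 0.99). None of the 9 passed an unadjusted p under 0.05, against 3.8% of all probe sets, of which 0% passed after adjustment. The standard errors, from 0.39 for Pf4 to 1.53 for Gp9 in the fit, were wider than the interaction itself in each of the 9 genes. The median over the 9 genes was 0.05, and between -0.72 without YSR replicate 2 or YR replicate 2 and 0.41 without YSR replicate 3.

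The spread between arrays was large and shared by the genes, also within groups. The SD within groups, which leaves out differences between groups, was between 0.40 for Pf4 and 1.62 for Gp9. The SD over the 12 arrays was between 0.39 for Pf4 and 1.48 for Gp9, against a median of 0.27 among probe sets no dimmer than the median one, and the share of a gene's variance that lay between the 4 groups was from 13.3% for Gp9 to 54.8% for Vwf. OSR replicate 1 was the highest array for 6 of the 9 genes and among the top 3 for 9, YR replicate 2 among the top 3 for 8, and OR replicate 2 for 7. YSR replicate 2 was the lowest array for 6 of the 9. Over the 36 pairs of genes the median Pearson r across 12 arrays was 0.85 (0.62 for Gp5 with Clec1b to 0.98 for Pf4 with Treml1). With group means removed it was 0.84, so arrays of the same group also differed in these genes together. Without YSR replicate 2 and YR replicate 1, the arrays farthest from the median, it was 0.82. Gp5 followed the others least, with an r of 0.80 with the mean of the other 8, and Pf4 most, at 0.97. These values are descriptions. The genes on an array share its RNA pool and its scaling, so genes are not independent replicates.

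**Figure D3:**
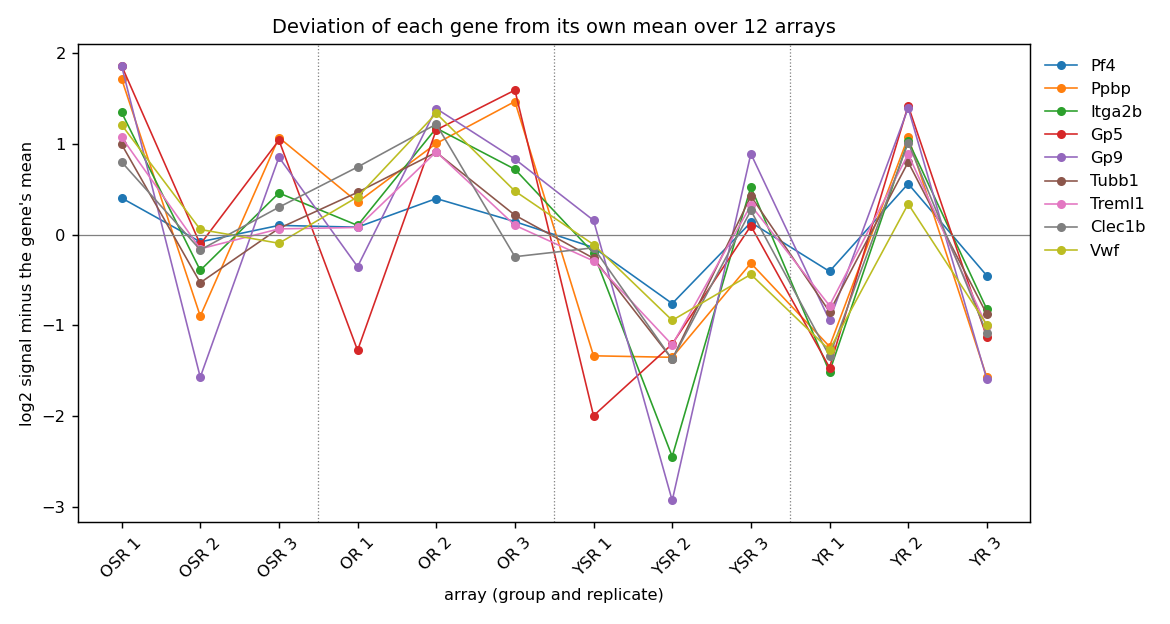
Log2 signal minus the gene's own mean (vertical axis) of the 9 genes on the 12 arrays (horizontal axis, dotted lines between groups). The lines rise and fall together, with high points at OSR 1, OR 2 and YR 2 and low points at YSR 2, YR 1 and YR 3, and Gp9 spans the most and Pf4 the least.

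Beyond the 10 genes, the probe sets that followed the mean of the 9 most closely were sought among 12359 with 1 symbol that were no dimmer than the median probe set, whose median r was -0.03. The r exceeded 0.9 for 38 of them. Several of the closest were known platelet genes. Alox12, the platelet lipoxygenase, had an r of 0.97, Nfe2, a transcription factor needed for platelet release, 0.96, Itgb3, the partner chain of Itga2b, 0.95, Mmrn1, which encodes the granule protein multimerin, 0.95, and Slc6a4, the transporter by which platelets take up serotonin, 0.94. The other 7 of the closest 12 were Kcnab1 (0.97), Stmp1 (0.96), Tuba4a (0.94), Bcl11a (0.94), Smim5 (0.94), Nt5c3a (0.94) and Nin (0.94). The neutrophil marker S100a8 was also over 0.9, at 0.903, above the megakaryocyte factor Gata1 at 0.877. Itgb3 was at 12.77, 11.17 and 11.54 in OSR, 12.34, 12.97 and 12.45 in OR, 10.80, 9.69 and 11.35 in YSR, and 9.94, 12.29 and 9.88 in YR, with OSR 1 and OR 2 highest and YSR 2, YR 1 and YR 3 lowest. The OR arrays of Itgb3 lay above its YR arrays, as did those of 7.75% of all probe sets. Its difference for age was 1.55 (SE 0.43, limma adjusted p = 0.30).

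Further platelet genes came from lists rather than from likeness. Of 17 measured receptor and signalling genes (of 20 listed), 11 were higher and 6 lower in old rats. At an unadjusted p under 0.05, 3 were higher and 1 lower, and 0 adjusted. The median difference was 0.16, against 0.02 over all probe sets. Of all probe sets, 4.7% were higher at that unadjusted level, and 2667 of 31042 passed in either direction. Selp, the granule adhesion receptor P-selectin, was higher by 1.10 (SE 0.28, limma adjusted p = 0.26), and Tbxas1, thromboxane synthase, was lower, at -0.57 (SE 0.11, limma adjusted p = 0.15). Tbxas1, which macrophages express as well, was at 10.53, 10.71 and 10.99 in OSR, 10.41, 10.22 and 10.64 in OR, 11.33, 11.49 and 11.05 in YSR, and 10.91, 11.03 and 11.10 in YR. Every OSR array lay below every YSR array, and every OR array below every YR array. The share of all probe sets with that pattern was not counted. In the opposite direction, 4.08% of all probe sets had every OSR array above every YSR array. For OR above YR the share was 7.75%. Of 9 measured granule cargo genes (of 12), 8 were higher and 1 lower, 2 higher at an unadjusted p under 0.05 and 0 adjusted, with a median of 0.24. Srgn, the granule proteoglycan serglycin, was higher by 0.63 (SE 0.21, limma adjusted p = 0.37), and Clu, clusterin, by 0.54 (SE 0.23, limma adjusted p = 0.55).

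Among 14 measured genes of megakaryocyte transcription and growth (of 15), 10 were higher and 4 lower in old rats. At an unadjusted p under 0.05, 6 were higher, and 0 adjusted, against 4.7% of all probe sets higher at the unadjusted level. The median difference was 0.73, against 0.02 over all probe sets. Cxcl12, a chemokine that guides megakaryocytes in marrow and is made by stromal cells, was higher by 1.22 (SE 0.20, limma adjusted p = 0.097). It was at 12.33, 11.27 and 11.27 in OSR, 12.08, 12.36 and 12.82 in OR, 10.48, 10.69 and 10.52 in YSR, and 10.76, 11.50 and 10.87 in YR. Old arrays of Cxcl12 were above young ones under each fixator. Of all probe sets, 4.08% had this pattern in the semi-rigid pair and 7.75% in the rigid pair. The factors Tal1 and Gfi1b, shared by the megakaryocyte and erythroid lines, were higher by 1.44 (SE 0.51, limma adjusted p = 0.43) and by 1.38 (SE 0.45, limma adjusted p = 0.37). Thpo, which encodes thrombopoietin, was dim, with a mean of 3.89.

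Markers of 2 other blood lines moved with the platelet genes from array to array. The mean of the 8 measured erythroid markers (of 9 listed) had a Pearson r of 0.87 and a Spearman rho of 0.86 with the mean of the 9 platelet genes over 12 arrays, an r of 0.84 with group means removed, and 0.82 without YSR replicate 2 and YR replicate 1. That erythroid mean was 9.96 to 11.71 in OSR, 11.02 to 11.89 in OR, 8.21 to 11.48 in YSR and 9.79 to 11.21 in YR. The mean of the 6 measured neutrophil markers (of 8) had an r of 0.86 and a rho of 0.92, with 0.79 and 0.81 in those settings, and was 9.23 to 10.94 in OSR, 9.64 to 11.62 in OR, 8.80 to 9.35 in YSR and 8.58 to 10.83 in YR. No measured gene of either list was at the floor on any array. Of the neutrophil markers, Cxcr2 (mean 5.21) and Mmp8 (mean 6.87) were under the median probe set. The highest young array for neutrophil markers was YR replicate 2, as it was for the platelet genes. For erythroid markers it was YSR replicate 3, at 11.48, above YR replicate 2 at 11.21.

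Both lists had a higher median in old rats, by 1.06 for the erythroid markers (8 of 8 higher, 3 at an unadjusted p under 0.05) and by 1.56 for the neutrophil markers (4 of 6 higher, all 4 at an unadjusted p under 0.05), with 0 adjusted calls in each. The neutrophil markers that were not higher were Csf3r and Cxcr2. S100a8 was higher by 1.68 (SE 0.43, limma adjusted p = 0.26) and Epor, the erythropoietin receptor, by 1.47 (SE 0.47, limma adjusted p = 0.37). Monocyte and macrophage markers had a median of -0.36, with 6 of 9 lower, 4 of them at an unadjusted p under 0.05 and 0 adjusted, and an r of -0.43 (rho -0.39) with the platelet genes. Endothelial markers had a median of 0.45, with 8 of 8 higher in old rats, 4 at an unadjusted p under 0.05 and 0 adjusted, and an r of 0.49 (rho 0.49), while the Gapdh 3′ to 5′ ratio had an r of -0.17 (rho 0.02). The 6 mast cell markers were all dim, with means under the median probe set, 6 of 6 higher in old rats, 0 at an unadjusted p under 0.05, and an r of 0.66 (rho 0.63). Of all 31042 probe sets, 2667 had an unadjusted p under 0.05 for age, in either direction. The part of these cell types in the age difference of the platelet genes was not tested.

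**Figure D4:**
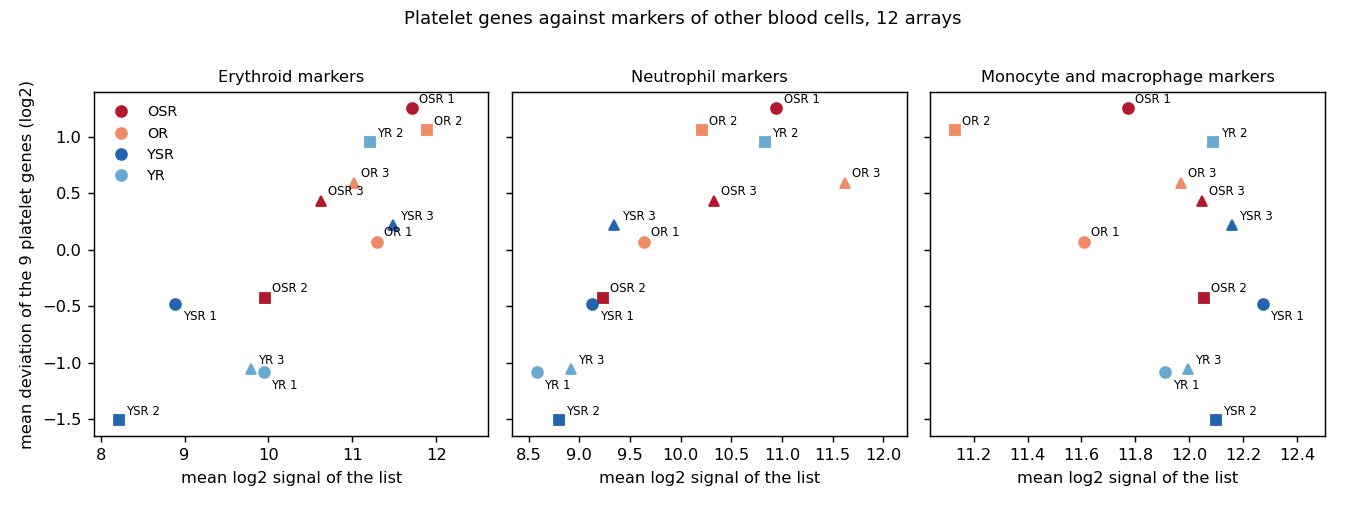
Mean deviation of the 9 platelet genes (vertical axis, log2) against the mean log2 signal of erythroid, neutrophil, and monocyte and macrophage markers (horizontal axes), 1 point per array. Points run upward to the right for erythroid (r = 0.87) and neutrophil markers (r = 0.86) and slightly downward for macrophage markers (r = -0.43).

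Because the genes moved together, the promoters that RefSeq gives for them were searched on both strands for short words. These promoters (build GRCr8) run from 250 bases before to 50 after a transcript start. The words are bound by 2 of the factor families of the megakaryocyte line, GATA and ETS. For GATA these were the word AGATAA, the word TGATAA, the word AGATAG and the word TGATAG. For ETS these were the word CCGGAAG and the word CAGGAAG. Words of other factor families were not searched. No 2 matches overlapped in these promoters. Promoters were given for 8 of the 10 genes. A GATA word was in 4 of them (Itga2b, Gp1bb, Gp5 and Clec1b), an ETS word in 3 (Itga2b, Gp9 and Clec1b) and both in 2, whereas of 33469 rat promoters of the same length 30.3% held a GATA word, 20.1% an ETS word and 5.39% both. The 2 with both and Gp5, the gene that followed the others least, are shown in lower case with the matched words in capitals. A word read on the opposite strand appears as its reverse complement, which is TTATCT where AGATAA was matched, CTTCCGG where CCGGAAG was matched and CTTCCTG where CAGGAAG was matched.
Itga2b: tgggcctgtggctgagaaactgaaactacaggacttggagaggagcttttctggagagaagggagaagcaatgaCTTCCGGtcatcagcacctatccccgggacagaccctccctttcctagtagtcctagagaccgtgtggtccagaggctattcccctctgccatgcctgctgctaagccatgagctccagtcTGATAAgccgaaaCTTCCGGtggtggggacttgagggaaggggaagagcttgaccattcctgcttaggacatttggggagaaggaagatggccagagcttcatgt
Clec1b: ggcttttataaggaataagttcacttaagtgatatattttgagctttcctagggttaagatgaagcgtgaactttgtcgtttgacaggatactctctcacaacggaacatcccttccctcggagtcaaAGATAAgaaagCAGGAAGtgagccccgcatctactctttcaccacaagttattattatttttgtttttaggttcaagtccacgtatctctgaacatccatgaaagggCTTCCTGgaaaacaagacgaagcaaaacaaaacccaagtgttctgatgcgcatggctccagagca
Gp5: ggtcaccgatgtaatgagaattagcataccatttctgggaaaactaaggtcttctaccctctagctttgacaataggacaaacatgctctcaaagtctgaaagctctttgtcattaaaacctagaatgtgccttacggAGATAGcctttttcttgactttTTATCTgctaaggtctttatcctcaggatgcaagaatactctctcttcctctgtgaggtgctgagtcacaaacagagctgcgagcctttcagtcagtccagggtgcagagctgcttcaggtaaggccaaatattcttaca

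The Itga2b window was chr10:87925784-87926083 on the minus strand, with TGATAA beginning at base -55 from the start (the base before the start is -1) and CCGGAAG on the opposite strand at -176 and -42. In the Clec1b window (chr4:164533859-164534158, plus strand) AGATAA began at -122, CAGGAAG at -111 and its reverse complement at -15. The Gp5 window (chr11:83948257-83948556, plus strand) held AGATAG at -112 and AGATAA on the opposite strand at -90. OSR 1 and YR 2 were among the top 3 arrays for Itga2b and Clec1b (both words), Gp5 (GATA alone) and Gp9 (ETS alone). They were so for Ppbp, Tubb1 and Treml1 (neither word) too. Whether these words bear on the shared pattern was not tested. A match describes letters only, and no binding was measured.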

How the data were processed

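Fracture hematoma RNA of 12 pools (4 groups, 3 arrays each) was primed with oligo(dT), labelled and hybridized to Affymetrix rat arrays of 1 colour. For 31099 probe sets the authors deposited linear signal intensity, already scaled per array, and the processing notes name GCOS 1.2. The paper's methods instead name PLIER, whose summaries were not used here. Scaling of this kind makes each level relative to the rest of the array, and 3′ labelling makes it open to RNA breakdown.

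The log2 of each signal, floored at 1, was used, and 57 control probe sets were left out, so that 31042 were tested. The annotation gave 1 symbol to 20832 probe sets, several to 436 and none to 9831, and a gene identifier linked 20764 of the single ones to the rat gene list. Where a gene had several probe sets, the one of highest mean was kept. All 4 groups entered 1 linear model in limma 3.58.1 (lmFit, then eBayes with trend) under R 4.3.3 (data.table, version 1.17.8), adjusted by Benjamini-Hochberg over all probe sets, at 0.05. The fit was tested on simulated data. Summaries and plots used Python 3.11.15, pandas 2.3.3, numpy 2.4.6 and matplotlib 3.10.9.

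The 10 genes, the related lists and the tests were chosen with earlier results of these data known. By rule, statistics were printed for the genes with an unadjusted p under 0.05 in each comparison, or else the gene of smallest p, for up to 4 genes of each related list, and for the 12 genes of highest r with the mean of the 9. The lists were platelet receptors and signalling, platelet granule cargo, megakaryocyte transcription and growth, endothelium, monocytes and macrophages, neutrophils, erythroid cells and mast cells. A list of 4 marrow myeloid precursor genes (Mpo, Elane, Prtn3 and Ctsg) had no probe set of 1 symbol and gave no result. Alternatives were quantile normalization, a pseudocount of 16, leaving out dim probe sets, eBayes without trend, fits of 1 pair alone, the methods' test, a block for replicate number, leaving out each array or the 2 of highest Gapdh 3′ to 5′ ratio, and that ratio as a covariate. No 2 arrays held identical values. The number of arrays limits the precision, and p-values measure the spread between pools.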

Additional observations from a re-analysis of the deposited data

How the results depend on the processing

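No platelet gene passed the adjusted threshold in any of the 7 comparisons under any of the 20 or 21 alternatives run, and the smallest adjusted p was 0.14, for age without YR replicate 2. Counts at an unadjusted p under 0.05 were from 2 to 8 for age, where 3 was reported, 0 to 3 for OSR minus YSR and 0 to 7 for OR minus YR. With dim probe sets kept, 1848 to 3105 of the 31042 probe sets passed in either direction for age. For OSR minus YSR it was 968 to 2236, and for OR minus YR 1895 to 3099. With all arrays kept, the 2 reported for OSR minus YSR became 0 with quantile normalization, without the intensity trend or with the Gapdh ratio as a covariate, 1 with a pseudocount of 16 or without dim probe sets, and 3 with the arrays of the pair alone, which also gave 2 in place of 1 for OR minus YR. Without YSR replicate 1 and OR replicate 1 the counts were 4 for age, 0 for OSR minus YSR and 2 for OR minus YR. Over all probe sets, adjusted calls for age were 2, and 80 without OSR replicate 3. For age, Ppbp was between 1.30 and 1.99, Gp5 between 1.10 and 1.88 and Vwf between 0.93 and 1.38. Directions for fixation and the interaction turned with single arrays: of the 9 genes, 0 to 9 were higher for fixation, 0 to 7 for OSR minus OR, 0 to 9 for YSR minus YR and 1 to 8 for the interaction. Of the genes of smallest p, those that turned were Ppbp for fixation (-0.64 to 0.044 with 1 array left out), Gp5 for YSR minus YR (-1.21 to 0.26 with 1 array left out) and Gp5 for the interaction (-0.28 without YSR replicate 1 and OR replicate 1, highest in Gapdh 3′ to 5′ ratio). The cause was not tested. The replicate numbers paired no arrays: deviations of same-numbered arrays had a median r of 0.02 over 18 pairs, against 0.02 over 36 others, and 4 of 12 arrays were closest to their own number. With the replicate block, 0 genes passed after adjustment in each comparison, the unadjusted counts were 3 for age, 1 for OSR minus YSR and 1 for OR minus YR, and the adjusted p for age was 0.48 for Ppbp, 0.59 for Gp5 and 0.39 for Vwf. The mean over all probe sets of a gene was not run, because each of the 9 genes had 1. Leaving out dim probe sets removed Gp5. By the methods' test 0 genes passed after adjustment in each comparison, and at an unadjusted p under 0.05 there were 2 for age, 0 for OSR minus YSR and 0 for OR minus YR. With 3 pools a group, the spread between pools sets what can be seen.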
